A study of Mus musculus with 5 samples.

Results

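The ribosomal protein genes were described in Müller glia (MG), the radial glia of the retina, sorted from adult mice after viral gene delivery. Genes were taken by symbol, as every gene whose name starts with Rps or Rpl and goes on with a digit or a small letter, without the Rps6k kinases. Of 33696 genes in the files, 92 matched, and the 86 with at least 100 unique molecular identifiers (UMIs, each 1 counted RNA molecule) over 4 libraries were kept. The last gene inside this limit was Rps23rg1 with 160 UMIs, and the first outside it was Rps18-ps6 with 56. The other 5 outside were Rpl39l with 49, Rps18-ps4 with 25, Rpl3l with 24, Rpl10l with 2 and Rplp2-ps1 with 0 UMIs. Of the 86 genes, 77 encode the proteins of the cytoplasmic ribosome itself, 31 of the small subunit, 43 of the large subunit and 3 of the stalk. The other 9 are the paralogs Rpl22l1, Rpl36al, Rps27l and Rpl7l1, the annotated pseudogenes Rpl9-ps6 and Rpl10-ps3, the retrogenes Rps23rg1 and Rps27rt, and Rps19bp1, which encodes a protein that binds RPS19. Fau, which encodes a ribosomal protein fused to a ubiquitin-like protein, carries another name and was counted with the other translation genes.

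The mice were Glast-CreERT2; Rosa26-Ai65 on C57BL/6J, of both sexes pooled and aged 12 to 20 weeks, and all received tamoxifen and EdU. An ShH10 AAV whose GFAP promoter drives FlpO together with either mKate2, a red fluorescent control protein, or Yap5SA, a form of YAP that escapes Hippo inhibition, was injected into the vitreous. Both recombinases are needed to switch on tdTomato, and tdTomato+ cells were sorted on day 56 and profiled with the 10x Genomics 3′ v3.1 chemistry. Retinas were pooled, 16 for mKate2 AAV and 21 for Yap5SA AAV, so p-values measure the spread between libraries of pooled tissue and not between animals. Libraries mKate2 AAV 1 and 2 and Yap5SA AAV 1 and 3 were used. Library Yap5SA AAV 2 was left out because 1361 of its cell barcodes (99.8%) were also in Yap5SA AAV 1, whereas no other pair shared more than 7. Values of the 4 libraries are always given in the order mKate2 AAV 1, mKate2 AAV 2, Yap5SA AAV 1 and Yap5SA AAV 3.

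Each ribosome is built from one copy of nearly every one of these proteins, together with ribosomal RNA, in a small subunit that reads the mRNA and a large subunit that joins amino acids. Their mRNAs are among the most abundant of most cells. Many start with a cytosine followed by a run of pyrimidines, the 5′ terminal oligopyrimidine (TOP) element, through which mTOR signalling controls their translation together with that of elongation factors. MG span the whole thickness of the retina, recycle glutamate through glutamine synthetase (Glul) and support neurons, and in the adult mouse they rarely divide.

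The libraries held 2748, 7729, 1407 and 3409 cells and 13614102, 50938304, 13132765 and 16035182 UMIs. Cells with at least 1000 UMIs and at most 15% mitochondrial UMIs were called MG when Glul, Rlbp1, Slc1a3, Clu and Aqp4 together reached 0.5% of their UMIs. This gave 1498, 2898, 803 and 1341 MG, 6540 of 15293 cells, with a median depth of 6194.5, 2918.5, 10778 and 2920 UMIs. Outside the rule, Sox9, a glial transcription factor, had 435, 773, 443 and 722 counts scaled to 1000000 UMIs (CPM). Rod markers reached 0.5% of UMIs in 6, 59, 0 and 108 of the MG, and pigment epithelium markers in 0, 24, 3 and 60. Cone markers did so in 0, 2, 0 and 10, bipolar markers in 0, 2, 0 and 0, amacrine markers in no MG, and microglial markers in 2, 28, 2 and 0. Cells of this kind were most common in Yap5SA AAV 3, and the 4 fits over all MG and the share differences between conditions and depths are also given without them. The file headers of mKate2 AAV 1 and Yap5SA AAV 1 name Cell Ranger 8.0.0 and those of mKate2 AAV 2 and Yap5SA AAV 3 name 9.0.1, so each condition had 1 library of each version. The version cannot be told apart from anything else these pairs share, such as their lower and higher number of cells.

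The 5′ ends below are shown because the TOP element is the sequence that ribosomal protein mRNAs are best known to share, and because these genes are among the highest in level, the largest or smallest changes, or form paralog pairs. Each window holds 30 bases of the mouse genome (GRCm39) around the longest pyrimidine run found between 50 bases before and 100 bases after the annotated transcript start (GENCODE), printed 5′ to 3′ on the transcript's strand with that run in capitals. The windows are chr9:61821803-61821832 (Rplp1, minus strand), chr14:24540778-24540807 (Rps24, plus), chr10:23663080-23663109 (Rps12, minus), chr14:4198699-4198728 (Rpl15, plus), chr4:152410136-152410165 (Rpl22, plus), chr3:28859648-28859677 (Rpl22l1, plus), chrX:133486421-133486450 (Rpl36a, plus) and chr12:69231211-69231240 (Rpl36al, minus).
Rplp1: gcgtatatgaTCTTTTCCTCagctgccgcc
Rps24: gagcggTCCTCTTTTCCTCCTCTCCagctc
Rps12: ccaccgccggCCTTTTCCCCTgccgccgcc
Rpl15: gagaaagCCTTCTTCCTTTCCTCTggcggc
Rpl22: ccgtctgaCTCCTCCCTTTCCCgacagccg
Rpl22l1: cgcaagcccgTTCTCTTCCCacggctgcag
Rpl36a: cggctctagCCTCTCTCTTTCCgagctgct
Rpl36al: ggctccgcgcaTCCTCTCTggcagttgcag
The run was 10 bases long in Rplp1, 19 in Rps24, 11 in Rps12, 17 in Rpl15, 14 in Rpl22, 10 in Rpl22l1, 13 in Rpl36a and 8 in Rpl36al. In both pairs shown the paralog had the shorter run. The paralog pairs not shown differed from this, with 9 bases in both Rps27 and Rps27l, and 6 in Rpl7 against 7 in Rpl7l1. In Rpl22 and Rpl15 it began 6 and 7 bases upstream of the annotated start and ran across it. Elsewhere it began downstream of that start, by 5 bases in Rpl36al, 16 in Rps12 and 27 in Rpl36a. The distance was 50 bases in Rplp1, 58 in Rps24 and 73 in Rpl22l1. A run of at least 10 pyrimidines was present in 48 of the 77 standard genes (62.3%), in 3 of the other 9 genes (33.3%) and in 5335 of 21431 protein-coding genes (24.9%). The letters CTTTCC, which can lie within such a run, occurred on the transcript strand in 23 of the 77 windows (29.9%) against 6.42% of all coding genes, and on the opposite strand in 5 of them (6.49%) against 6.43%. These are matches of letters only. The libraries read the 3′ end of transcripts, so the start used in MG was not measured.

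Ribosomal protein genes made up 4.58%, 7.37%, 5.79% and 5.13% of all MG UMIs. Within a library the share varied widely between cells, with medians of 4.22%, 11.1%, 5.38% and 8.92%. The 10th percentile of cells lay at 1.97%, 2.75%, 1.77% and 1.38%, and the 90th percentile at 14.8%, 22.1%, 16.6% and 15.5%. MG with a share under 1% were 29, 83, 35 and 92 cells, or 1.94% (exact 95% interval 1.30 to 2.77), 2.86% (2.29 to 3.54), 4.36% (3.05 to 6.01) and 6.86% (5.57 to 8.35). Such intervals cover counting error only. The balance of the subunits varied less, with 0.683, 0.697, 0.693 and 0.674 small subunit UMIs per UMI of the large subunit and stalk.

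A 3′ library counts each transcript once whatever its length, so levels of different genes are given in CPM without division by length. The highest of all was Rplp1, a protein of the stalk that recruits elongation factors, at 1159, 2517, 1475 and 1404 CPM (1639 ± 601, mean ± SD, n = 4). Library mKate2 AAV 2 stood above the other 3. Rps29 followed at 1229, 1496, 1740 and 1373 CPM (1460 ± 216), then Rps24 at 1048, 1881, 1388 and 1146 CPM (1366 ± 372), both of the small subunit. Rpl41, the shortest protein of the ribosome, had 958, 1698, 1444 and 1153 CPM (1313 ± 325). The first 10 also held Rpl13 (1280 ± 258), Rps27a, made as a fusion with ubiquitin (965, 1516, 1105 and 1080 CPM, 1167 ± 241), Rps21 (1119 ± 241), Rpl23 (1098 ± 282) and Rpl21 (1065 ± 246). The differences between neighbours in this order were smaller than their spread over libraries. Together these 10 held 22.1% of the UMIs of the 86 genes.

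The standard set was compact. From Rplp1 down to Rpl4, its lowest member at 371 ± 67.6 CPM, the levels spanned 4.41-fold around a median of 710 CPM. The other stalk proteins were lower than Rplp1, with Rplp2 at 618, 1079, 824 and 687 CPM (802 ± 204, rank 22) and Rplp0, which anchors both to the subunit, at 279, 725, 409 and 427 CPM (460 ± 188, rank 69). Rpsa, a small subunit protein also known as the laminin receptor, had 263, 646, 398 and 358 CPM (416 ± 163, rank 73). The order of the 77 genes was much the same in each library, with Spearman's rho from 0.827 to 0.954 between libraries over the 77 genes, which are not independent replicates. mKate2 AAV 2 had the highest level of 75 of the 86 genes and mKate2 AAV 1 the lowest of 68, and the same counts over all genes were not made.

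**Figure D1:**
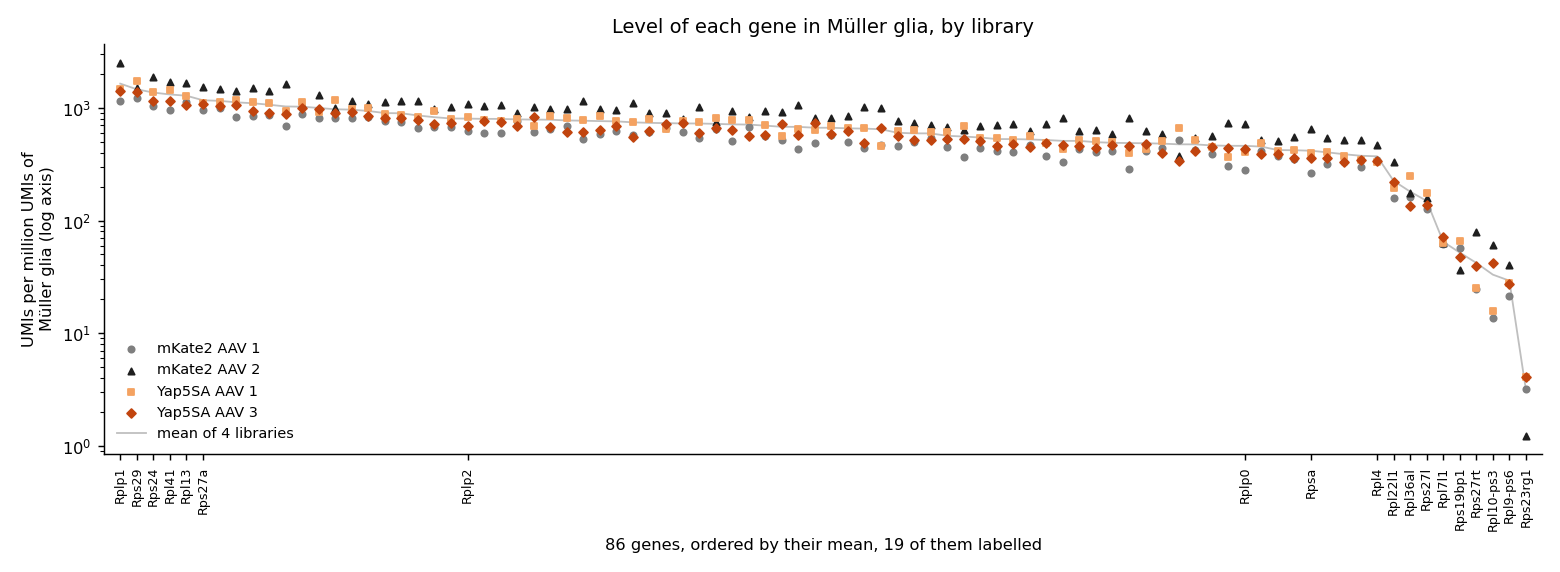
Level of each of the 86 genes in MG, in CPM on a log axis, with genes ordered by their mean, 19 of them labelled, and 1 point per library. The 77 standard genes form a shallow slope from 1639 to 371 CPM, and the paralogs, pseudogenes and retrogenes fall below it.

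The 9 other genes held 1.37% of the UMIs. Rpl22l1, a paralog of Rpl22, was the highest of them at 157, 330, 194 and 219 CPM (225 ± 74.5). Rpl36al (180 ± 47.3), Rps27l, a p53-inducible paralog of Rps27 (149 ± 22.3), and Rpl7l1 (64.7 ± 4.66) followed. Rps19bp1 had 52.0 ± 12.9, Rps27rt 42.1 ± 25.5, Rpl10-ps3 33.1 ± 22.5, Rpl9-ps6 29.3 ± 7.92 and Rps23rg1 3.14 ± 1.34 CPM. Rpl10-ps3 had 13.6 and 15.9 CPM in the libraries of Cell Ranger 8.0.0 and 60.7 and 42.1 CPM in those of 9.0.1, and Rps27rt had 24.9 and 25.0 against 78.9 and 39.4 CPM. Rps27rt, Rps23rg1 and the pseudogenes resemble the gene they were copied from, so their counts may include reads that the counting could not place with certainty.

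Whether MG that had received Yap5SA AAV differed from control MG on day 56 was asked first of the share. It was 5.98% ± 1.97 with mKate2 AAV and 5.46% ± 0.463 with Yap5SA AAV (SD, n = 2 libraries each), a difference of -0.514 points (two-sided exact permutation test, p = 1). The smallest p that 2 libraries against 2 allow is 0.33. The libraries of each condition overlapped, and the pairs of 1 Cell Ranger version went opposite ways, with Yap5SA AAV higher by 1.21 points in the 8.0.0 pair and lower by 2.23 points in the 9.0.1 pair. Without mKate2 AAV 2 the difference was 0.878, and without mKate2 AAV 1 it was -1.91 points. Mitochondrial genes held 2.84%, 4.74%, 2.80% and 3.41% of UMIs, and dissociation stress genes 0.111%, 2.54%, 0.267% and 1.66%. The nuclear long noncoding RNAs Malat1, Neat1 and Meg3 held 8.87%, 3.04%, 7.83% and 3.71%. Unlike the summed ribosomal protein share, these shares followed the Cell Ranger pairs rather than the AAV. So did the median ribosomal protein share over cells, at 4.22% and 5.38% in the 8.0.0 pair and 11.1% and 8.92% in the 9.0.1 pair. The part of the mitochondrial, stress and lncRNA shares in the result was not tested.

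No ribosomal protein gene passed the test for a change with Yap5SA AAV. In edgeR's quasi-likelihood test (Benjamini-Hochberg adjustment), 0 of 86 genes were called, and 0 of 15285 tested (0%). In edgeR 30 of all genes were under an unadjusted p of 0.05, and DESeq2 called 0, with 91 under 0.05. The median log2 fold change of the 86 genes was -0.28, against -0.03 for all genes tested, and it became +0.28 without mKate2 AAV 2. With the Cell Ranger version as a term in the edgeR fit, 0 of 86 genes were called and the median was -0.21. Between single libraries, 83 of 86 genes were higher in Yap5SA AAV 1 than in mKate2 AAV 1, but 3 of 86 were higher in Yap5SA AAV 3 than in mKate2 AAV 2. These counts go with the share differences of the same pairs given above, and the same counts over all genes were not made. The 3 lowest fold changes (log2, with standard error) were those of Rps27rt (-0.84, SE 0.668), Rpl10-ps3 (-0.52, SE 0.888) and Rpl23a (-0.52, SE 0.543), and the 3 highest those of Rps28 (0.16, SE 0.441), Rps19bp1 (0.20, SE 0.289) and Rps23rg1 (0.82, SE 0.621). Rps27rt and Rps23rg1 lay beyond their own standard errors and were not called. Changes larger than a standard error could thus also be missed with 2 libraries per condition.

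The share differed with the number of UMIs of a cell. In shallow MG, with 1000 to under 3000 UMIs, ribosomal protein genes held 11.6%, 14.3%, 13.9% and 11.2% of UMIs, and in deep MG, with 6000 or more, 3.87%, 4.49%, 5.35% and 2.35%. Every library was lower in its deep cells and the classes did not overlap. The mean fell from 12.8% ± 1.58 to 4.02% ± 1.27, a difference of -8.75 points ± 0.864 (SD, n = 4 libraries, exact sign-flip test, two-sided, p = 0.13, the smallest it can give). Deep cells still carried more ribosomal protein UMIs each. In mKate2 AAV 1, 763 deep cells held 382951 of them and 479 shallow cells held 100157. The small to large subunit ratio was lower in deep cells by 0.0216 ± 0.00722 (n = 4, exact p = 0.13).

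Nearly every gene took part. Of 86 genes, 85 were lower in deep MG and 0 higher (edgeR's quasi-likelihood test with library as a term, Benjamini-Hochberg adjustment), against 17.8% lower and 21.4% higher among 12679 genes tested. The median log2 fold change was -2.03, and +0.11 over all genes. Rplp1 fell from 3368, 5296, 4340 and 3305 CPM in shallow cells to 942, 1462, 1328 and 575 CPM in deep cells (log2 fold change -2.29, SE 0.252, adjusted p = 8.95e-06). Rps29 went from 3600, 3042, 5235 and 3220 to 990, 884, 1565 and 571 CPM (log2 fold change -2.28, SE 0.248). Rpl37 (-2.28), Rps12 (-2.24), Rps21 (-2.21) and the pseudogene Rpl9-ps6 (-2.46) were the other members with the largest falls. All 4 libraries gave the same direction for 85 of the genes.

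The 77 standard genes moved as a block. Their log2 fold changes ran from -2.29 to -1.55 with an SD of 0.159 between genes, with a median of -2.04 for the small subunit and of -2.03 for the large subunit with the stalk. Rpl15, a large subunit protein, had the smallest fall of the set (-1.55), from 859, 1062, 799 and 870 to 383, 411, 503 and 262 CPM. Rplp0 (-1.79) and Rpsa (-1.80) also fell less than Rpl41 (-2.00), Rplp2 (-2.01) and Rps27a (-2.04). Across the 77 genes the fold change had a Spearman's rho of -0.582 with the mean level and of 0.114 with exon length, a description over genes that share the same cells.

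The paralogs had smaller falls. Rpl22l1 went from 322, 363, 396 and 302 to 140, 318, 182 and 191 CPM (log2 fold change -1.10, SE 0.220, adjusted p = 0.000833), and in mKate2 AAV 2 its level hardly differed between depths. Rpl7l1 (-1.06), Rps19bp1 (-1.08), Rps27l (-1.34) and Rpl36al (-1.39) were called as well, and Rps27rt fell like the standard set (-2.06). Rps23rg1 was not called (-0.56, SE 0.637, adjusted p = 0.505 by edgeR), with 1.16, 1.41, 4.0 and 3.90 against 3.34, 1.21, 4.29 and 1.22 CPM. When each sum was scaled to its own ribosomal protein UMIs, a setting chosen after seeing the data, 7 of 86 genes were higher in deep cells relative to the rest of the set and 0 lower. With this scaling 96.1% of all genes were higher and 0.0394% lower, so the calls describe only the order within the set. They were Rps23rg1 (1.5), Rpl7l1 (1.00), Rps19bp1 (0.98), Rpl22l1 (0.94), Rps27l (0.71), Rpl36al (0.65) and Rpl15 (0.49). Rps23rg1 was near the floor, with 160 UMIs in all cells of the 4 libraries, so its value rests on few counts.

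Set against the partner gene, Rpl22l1 had 31.8, 28.5, 30.6 and 33.2 UMIs per 100 UMIs of Rpl22 in shallow cells and 40.3, 85.0, 39.2 and 97.6 in deep cells. The ratio was higher in deep cells of all 4 libraries (mean log2 difference 0.96 ± 0.702, SD, exact sign-flip p = 0.13), by far the most in the libraries of Cell Ranger 9.0.1. Rpl36al to Rpl36a (0.69 ± 0.235), Rps27l to Rps27 (0.78 ± 0.380) and Rpl7l1 to Rpl7 (0.94 ± 0.225) were also higher in 4 of 4 libraries, each with an exact p = 0.13. Rplp1 to Rplp2 went the other way, from 219, 257, 220 and 218 to 180, 217, 175 and 183 per 100 UMIs (-0.28 ± 0.0375, exact p = 0.13).

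Other values moved with depth too. Mitochondrial genes held 5.75%, 8.34%, 4.90% and 7.19% of UMIs in shallow and 2.51%, 3.13%, 2.67% and 1.5% in deep cells, and dissociation stress genes 0.0722%, 0.439%, 0.0627% and 0.295% in shallow and 0.118%, 3.57%, 0.279% and 2.43% in deep cells. Their part in the result was not tested. The nuclear long noncoding RNAs (lncRNAs) moved as well. The median cell had 0.270%, 0.0548%, 0.139% and 0.0488% of its UMIs from Malat1, Neat1 and Meg3 in the shallow class and 10.3%, 3.17%, 8.08% and 5.75% in the deep class. MG fell into a low class, under 1% (28.6%, 87.2%, 23.8% and 85.6% of MG), and a high class, 2% or more (69.4%, 12.2%, 75.6% and 13.9%), with at most 2.00% between. The limits and this comparison were chosen after seeing the data. Low cells had a median of 2001, 2614, 2921 and 2588.5 UMIs and high cells 9200, 22434.5, 14186 and 22583.5. The ribosomal protein share was 12.7%, 12.8%, 15.4% and 9.27% in low cells and 3.72%, 2.80%, 4.97% and 1.5% in high cells. With the 3 lncRNAs left out of the total, the shares of all MG were 5.03%, 7.60%, 6.28% and 5.33%. Those of low cells were then 12.8%, 12.8%, 15.5% and 9.28%, and those of high cells 4.13%, 2.96%, 5.43% and 1.61%.

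Between these classes 85 of 86 genes were lower in lncRNA-high MG and 0 higher (edgeR's quasi-likelihood test, Benjamini-Hochberg adjustment), against 24.8% lower and 28.7% higher among 13601 genes. The median was -2.40, against +0.15 for all genes. Rps12 had 1690, 2071, 2175 and 1127 CPM in low cells and 413, 382, 654 and 161 in high cells (log2 fold change -2.60, SE 0.269, adjusted p = 0.000176). Rpl9-ps6 (-2.70), Rplp1 (-2.59), Rpl37 (-2.59), Rpl21 (-2.58) and Rps21 (-2.57) were the others with the largest falls. Of the genes fixed by role, Rplp0 (-2.23), Rpsa (-2.26), Rplp2 (-2.39), Rpl41 (-2.44) and Rps27a (-2.47) fell. So did Rpl36al (-1.99), Rps27l (-2.03), Rpl15 (-2.09) and Rps27rt (-2.49). Rpl22l1 (-1.29), Rpl7l1 (-1.5) and Rps19bp1 (-1.68) fell least of those called, and Rps23rg1 (-1.05, SE 0.684) was not called. Scaled to the ribosomal protein UMIs, 3 genes were higher in high cells and 0 lower, against 94.1% and 0.0515% of all genes, namely Rpl22l1 (1.12), Rpl7l1 (0.91) and Rps19bp1 (0.73).

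In the high class Rpl22l1 passed its partner in 2 libraries. It had 136 and 168 CPM against 336 and 438 CPM of Rpl22 in mKate2 AAV 1 and Yap5SA AAV 1, and 308 and 178 against 224 and 117 CPM in mKate2 AAV 2 and Yap5SA AAV 3. This made 40.4 and 38.4 Rpl22l1 UMIs per 100 of Rpl22 in the first pair and 138 and 152 in the second. In the low class all 4 libraries lay together, at 33.7, 31.7, 39.1 and 33.1. Dissociation stress genes, the immediate-early and heat shock genes induced by enzymatic dissociation, held 0.115% and 0.286% of the high cells' UMIs in the first pair and 4.27% and 2.84% in the second. Their part in the ratio was not tested.

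Within a lncRNA class the relation with depth took another form. Among lncRNA-low cells alone, the share fell from 15.3%, 14.5%, 17.7% and 11.4% in shallow to 9.09%, 11.1%, 13.0% and 6.26% in deep cells, a mean difference of -4.86 points ± 1.19 (lower in 4 of 4 libraries, exact sign-flip p = 0.13). No gene was called in that fit, 0 of 85, against 0.495% of 7077 genes tested. Of the 85, 83 had a fold change below 0, with a median of -0.74 against 0.000858 for all genes. An unadjusted p under 0.05 in edgeR's quasi-likelihood test was reached by 77 of the 85 and by 1023 of the 7077 genes. Pigment epithelium markers in these cells held 0.00194%, 0.0314%, 0.00395% and 0.0858% of UMIs in the shallow class and 0.00185%, 0.343%, 0.458% and 3.44% in the deep class. Without the cells in which another cell type's markers reached 0.5% of UMIs, a setting chosen after seeing the data, the mean difference of the share was -4.42 points ± 1.28 (lower in 4 of 4 libraries, exact p = 0.13). In edgeR, 46 of 85 genes were then lower and 0 higher, against 1.99% of 5927 genes called, with a median of -0.72. So the median was alike with and without these cells, while the count of calls was not. Among lncRNA-high cells, 0 of 86 were called, against 0.123% of 12968, and the median was +0.10, near the +0.14 of all genes. That fit rested on mKate2 AAV 1 and Yap5SA AAV 1 alone, the libraries with at least 20 shallow high cells. These are too few libraries for a test, so its count of calls cannot show whether genes differed. The share there was 4.01% and 4.60% in shallow and 3.78% and 5.04% in deep cells. Over single cells, Spearman's rho of the share with the UMI count was -0.240, -0.165, -0.198 and -0.420 in low cells (429, 2527, 191 and 1148 cells) and 0.197, 0.348, 0.379 and 0.566 in high cells (1039, 354, 607 and 186 cells). The share and the UMI count come from the same counts, and these are descriptions.

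**Figure D2:**
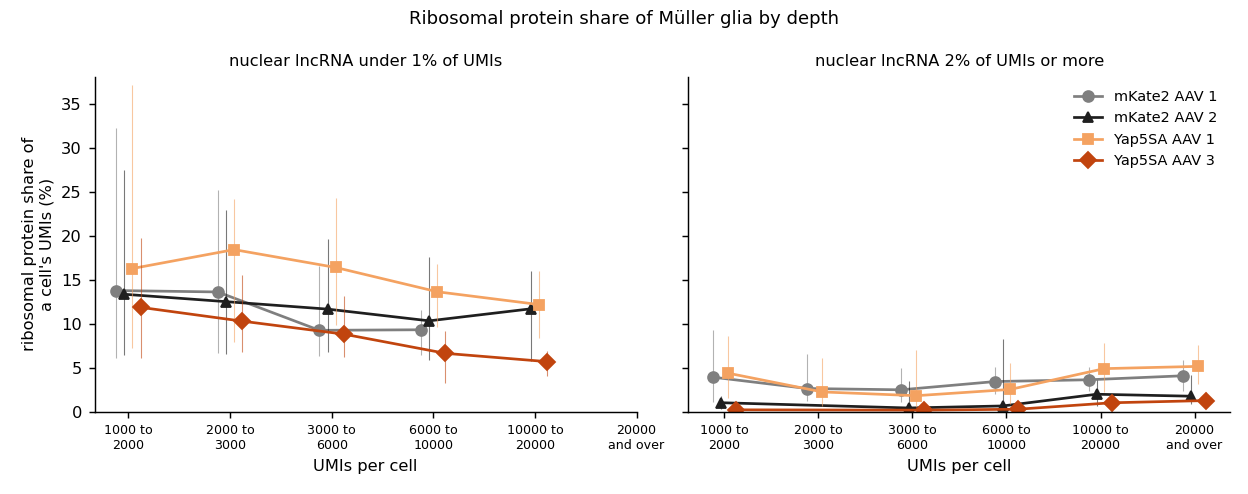
Ribosomal protein share of a cell's UMIs (%) by UMI count, in MG with nuclear lncRNA under 1% of UMIs (left) and 2% or more (right). Points are medians over cells in bins with at least 5 cells, thin lines run from the 10th to the 90th percentile, and colours mark the 4 libraries. The low cells lie above the high cells of the same library in every bin where both are drawn, and their medians are lower in the deepest bin drawn than in the first.

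Within lncRNA classes the conditions stayed without a call. The fold changes for Yap5SA over mKate2 AAV had a median of -0.13 over 85 genes in low cells and -0.04 over 86 genes in high cells, with 0 called in each by edgeR's quasi-likelihood test.

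Microglia and macrophages, the immune cells that came with the sort, had a far larger ribosomal protein share than MG. They numbered 25, 911, 135 and 64 cells, chosen by complement, Cx3cr1 and other myeloid markers, and the share was 17.0%, 16.5%, 12.7% and 14.1%. MG were lower in all 4 libraries, by 9.37 points ± 2.26 (exact sign-flip test, p = 0.13). The small to large subunit ratio, 0.766, 0.765, 0.764 and 0.768 in microglia and macrophages, was lower in MG by 0.0790 ± 0.0116, again in 4 of 4 libraries (exact p = 0.13).

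Of the 85 genes tested, 83 were lower in MG and 0 higher (edgeR's quasi-likelihood test with library as a term, Benjamini-Hochberg adjustment), against 20.6% lower and 28.5% higher among 14345 genes. The median was -1.83, and +0.28 over all genes. Among the largest differences was that of Rps12, with 533, 1154, 773 and 612 CPM in MG and 3372, 3253, 2422 and 2945 CPM in microglia and macrophages (log2 fold change -2.41, SE 0.295, adjusted p = 1.77e-05). The groups did not overlap. Rpl32 (-2.37), Rpl10, which joins the large subunit late in its assembly (-2.37), Rpl12 (-2.34) and Rps28 (-2.31) came next. Rpsa (-2.20), Rplp2 (-2.13), Rplp0 (-2.05), Rpl36al (-1.88), Rplp1 (-1.86), Rps27rt (-1.5), Rps27a (-1.42), Rpl15 (-1.39) and Rpl41 (-1.38) were lower as well. Rpl22l1 and Rps27l were each lower by 1.05 on this scale (-1.05), and Rpl9-ps6 by -0.80. Rps19bp1 and Rpl7l1 were not called. Rps19bp1 had 57.4, 36.3, 66.3 and 47.9 CPM in MG and 24.2, 24.1, 25.8 and 39.9 in microglia and macrophages (log2 fold change 0.44, adjusted p = 0.284), while Rpl7l1 had a log2 fold change of -0.27 (adjusted p = 0.435). The gene left out by the filter, Rps23rg1, had 0 UMIs in 3 of the 4 microglial sums.

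The set was less of a block here than between depths, with an SD of 0.353 between the 77 standard genes against 0.159. The small subunit had a median of -1.88 and the large subunit with the stalk of -1.68. When sums were scaled to the ribosomal protein UMIs, 2 of 85 genes, among them Rps12 (-0.60), stayed lower in MG, against 7.95% of all genes. In the same scaling 9 genes were higher, namely Rps19bp1 (2.23), Rpl7l1 (1.53), Rpl9-ps6 (0.99), Rpl7 (0.88), Rpl14 (0.83), Rpl22l1 (0.75), Rps27l (0.75), Rpl4 (0.74) and Rpl31 (0.73), against 75.9% of all genes. Rps12 was 1.16%, 1.57%, 1.33% and 1.19% of the ribosomal protein UMIs in MG and 1.99%, 1.97%, 1.91% and 2.09% in microglia and macrophages. Rpl7 was 1.34%, 1.37%, 1.2% and 1.60% in MG and 0.661%, 0.876%, 0.642% and 0.828% in microglia and macrophages. For both genes the cell types did not overlap.

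The cell types differed by less among cells of like depth or lncRNA class, with no test of the change. With cells under 6000 UMIs only, in the 3 libraries with 20 such cells of both types, 64 of 85 genes were lower (13.0% of all genes) with a median of -1.08. With lncRNA-low cells only, 44 of 85 were lower (14.2% of all genes) with a median of -1.14. The shares in lncRNA-low cells were 12.8%, 15.4% and 9.27% in MG of mKate2 AAV 2, Yap5SA AAV 1 and Yap5SA AAV 3, and 20.4%, 18.8% and 21.2% in their microglia and macrophages. Rpl7l1 was then on the other side of 0 (0.41 and 0.27, not called).

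Rod, bipolar and cone cells reached 20 cells in mKate2 AAV 2 and Yap5SA AAV 3 alone, too few libraries for a test. Rods (426 and 405 cells) had a share of 4.76% and 5.27% beside 7.37% and 5.13% in MG, and 80 and 48 of the 86 genes were higher in MG. In lncRNA-low cells the shares were 10.1% and 8.59% in rods and 12.8% and 9.27% in MG. Bipolar cells (299 and 45 cells) had 2.24% and 2.55%, and all 86 genes were higher in MG in both libraries. Cones (42 and 53 cells) had 2.38% and 2.08%, with 85 and 86 genes higher in MG. The median bipolar cell had 21676 and 19569 UMIs and the median cone 15897.5 and 15988, against 2918.5 and 2920 in MG. MG with 20000 UMIs or more had a share of 2.99% and 1.67%, and those with 10000 to under 20000 had 5.51% and 2.17%. The counts of genes higher in MG thus compare cells of unlike depth, and the same count over all genes was not made. Of the genes fixed by role, Rpsa had 731 and 938 CPM in rods and 646 and 358 CPM in MG. Rplp0 had 248 and 231 CPM in rods and 725 and 427 CPM in MG. Rpsa was not alone in being higher in rods in both libraries, as Rps24 had 2087 and 1771 CPM in rods and 1881 and 1146 CPM in MG. The small to large subunit ratio was 0.784 and 0.783 in rods and 0.697 and 0.674 in MG. A lower share in a summed sample cannot tell fewer ribosomal protein transcripts per cell apart from more of the other transcripts.

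**Figure D3:**
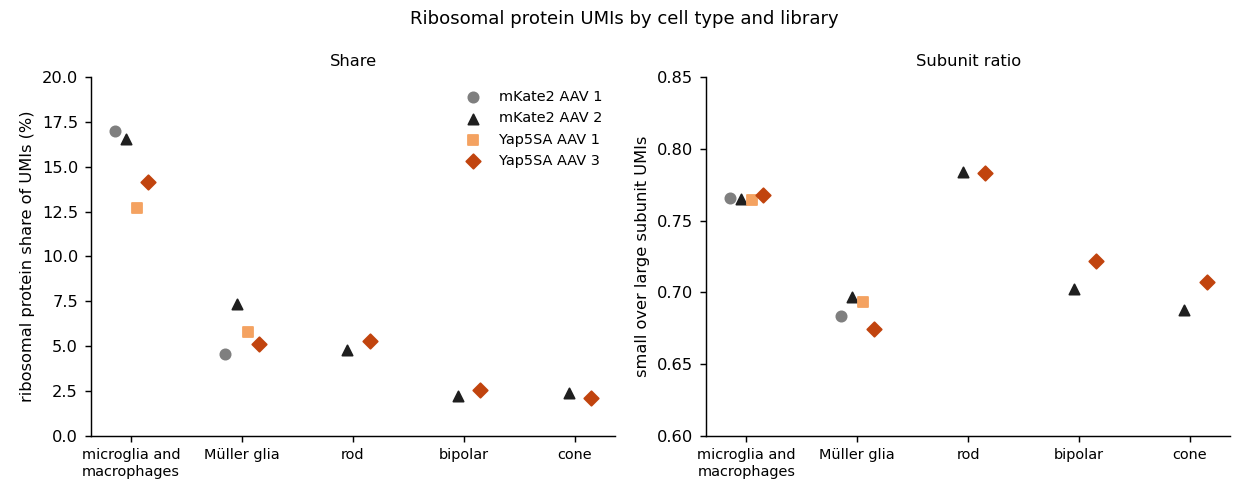
Ribosomal protein share of UMIs (%, left) and small subunit UMIs per UMI of the large subunit and stalk (right) by cell type, 1 point per library with at least 20 cells of the type. Microglia and macrophages lie above MG in both panels, and rods lie above MG in the ratio.

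**Figure D4:**
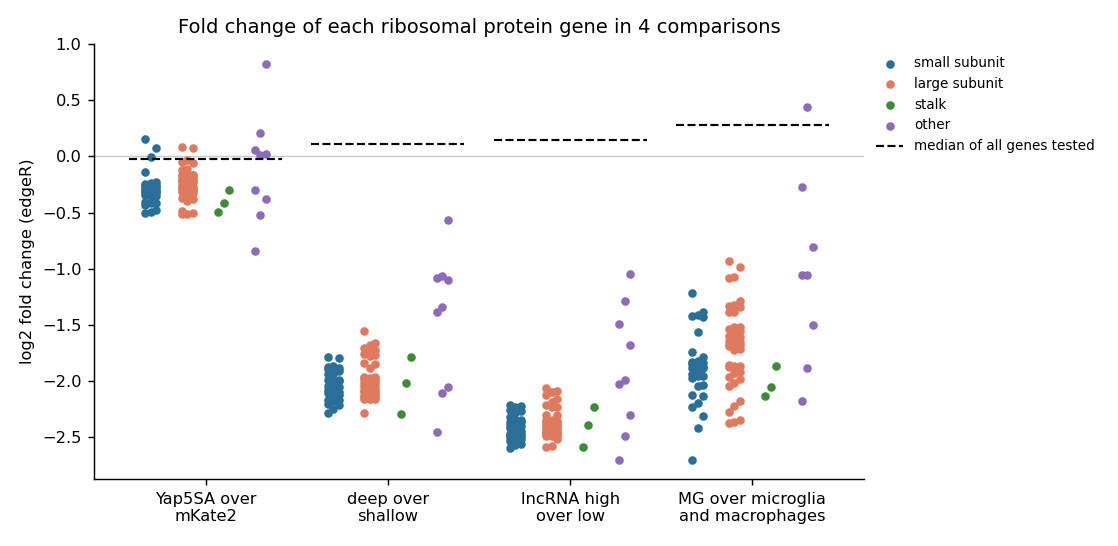
Log2 fold change (edgeR) of each ribosomal protein gene in 4 comparisons, coloured by subunit, with the median of all genes tested as a dashed line. The standard genes lie in tight groups at medians of -2.03 and -2.40 between depths and lncRNA classes and are more spread between MG and microglia and macrophages, while the other 9 genes are more spread.

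Other genes of translation moved with the set to different degrees. Of 21 further genes known for TOP mRNAs, 20 were lower in deep MG and 0 higher, with a median of -1.25, against 17.8% lower among all genes. Fau (-1.92), whose product is a ribosomal protein, and Tpt1 (-2.00) fell about as much as the standard set, Eef1a1, the main elongation factor, fell by 1.63 and Eif3a (-0.48) was not called. Between lncRNA classes 20 of the 21 were lower (median -1.79), against 24.8% of all genes, and in MG against microglia and macrophages 18 were lower (median -1.11), against 20.6%, with none higher in either. Over cells, the summed share of these 21 genes followed the ribosomal protein share with Spearman's rho of 0.882, 0.915, 0.943 and 0.831.

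Of 24 genes that build ribosomes, 6 were lower in deep MG and 1 higher, with a median of -0.31, where 17.8% of all genes were lower and 21.4% higher, so the share that fell was near that of all genes. Nhp2 (-1.5) and Nop10 (-1.46), both of the H/ACA particles that modify ribosomal RNA, fell most, and Nop58 (0.68), of the C/D particles, was the one higher. Between lncRNA classes 10 were lower and 0 higher (median -0.47), where 24.8% and 28.7% of all genes were. MG had less of 8 than microglia and macrophages, where 20.6% of all genes were lower, led by Fbl (-2.23), the methyltransferase of ribosomal RNA, and Gnl3 (-1.81). The 78 genes of the mitochondrial ribosome were lower with depth in 56 cases (median -0.97) and with lncRNA class in 73 (median -1.52), with none higher, beside the same 17.8% and 24.8% of all genes. Against microglia and macrophages 6 of them were lower and 5 higher (median -0.15), both below the 20.6% and 28.5% of all genes. With Yap5SA AAV none of the 3 lists had a gene called, at medians of -0.22, -0.12 and 0.05. Among 12 MG markers outside the rule, 2 were higher and 4 lower in deep cells, and of 15 dissociation stress genes 13 were higher (median 2.52) and 0 lower, again beside 21.4% higher and 17.8% lower among all genes.

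Without the MG in which another cell type's markers reached 0.5% of UMIs, the counts were nearly the same. With depth 85 of 85 genes were lower (median -2.11), between lncRNA classes 85 of 86 (median -2.51) and against microglia and macrophages 83 of 85. With Yap5SA AAV 0 of 86 were called, and the share differed by -0.595 points between conditions and by -8.94 points between depths.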

How the data were processed

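UMI counts for each gene and barcode were deposited by the authors, made with Cell Ranger on GRCm39 (version 8.0.0 in the submitters' notes, 8.0.0 or 9.0.1 in the file headers) and limited to barcodes called as cells, the lowest with 500 UMIs. The study's cell filters, integration and annotation were not repeated. No doublet caller was run, and MG carrying markers of another cell type were counted instead. Genes, marker lists and tests were chosen with earlier results of these data known.

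Counts were summed per library and class of cells with at least 20 cells. After filterByExpr and TMM scaling, edgeR's quasi-likelihood test was applied (Benjamini-Hochberg over all genes, called at 0.05), with library as a term where classes came from the same libraries. For shares, two-sided exact permutation tests (between conditions) or sign-flip tests (within libraries) were used. Scripts were tested on simulated data. Cell types other than MG needed 0.5% of UMIs from their markers (rods 2%) and under 0.5% from the MG genes. The text names the 10 highest genes, the 9 non-standard genes, 6 genes by role (Rplp0, Rplp1, Rplp2, Rpsa, Rpl41 and Rps27a) and the 6 largest changes each way, or the 3 largest and smallest where fewer were called. A few genes that meet this rule are left unreported. Rpl22, Rpl36a, Rpl15, Rps24 and further genes were named after their values were seen. Alternatives were other scaling (DESeq2 size factors, without ribosomal protein genes), DESeq2, no filter, other limits on cells, thinning to 1000 UMIs and leaving out each library. Tools were R 4.3.3 with edgeR 4.0.16, limma 3.58.1 and DESeq2 1.42.0, and Python 3.11.15 (scipy 1.17.1, numpy 2.4.6, matplotlib 3.10.9, pandas 2.3.3).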

Additional observations from a re-analysis of the deposited data

Results flagged for a closer look

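The difference in ribosomal protein share between Yap5SA AAV and mKate2 AAV had opposite signs in the pairs of libraries with the same Cell Ranger version, 1.21 percentage points in the 8.0.0 pair and -2.23 points in the 9.0.1 pair. Each pair holds 1 library per condition, so the difference between pairs was not tested.

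Spearman's rho of the share with the UMI count over MG lay between -0.420 and -0.165 in the 4 libraries for cells with nuclear lncRNA under 1% of UMIs, and between 0.197 and 0.566 for cells with 2% or more. All 4 libraries changed sign between the classes, and this was not tested.

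Among MG with nuclear lncRNA of 2% or more, Rpl22l1 had 40.4 and 38.4 UMIs per 100 UMIs of Rpl22 in mKate2 AAV 1 and Yap5SA AAV 1, and 138 and 152 in mKate2 AAV 2 and Yap5SA AAV 3. The libraries separated by Cell Ranger version and not by AAV, with 2 in each, and the difference was not tested.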

How the results depend on the processing

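The fall of the share and of 84 to 85 genes with depth kept its direction and its calls under every alternative run over all MG other than scaling to the ribosomal protein UMIs, and 0 ribosomal protein genes were called with Yap5SA AAV in any. The share difference between conditions turned to 0.158 points with mitochondrial UMIs limited to 5%, and ranged from -1.91 to 0.878 points when 1 library was left out. Against microglia and macrophages the count of called genes was 82 to 84 when libraries were left out, and moved to 44 with lncRNA-low cells only. None of these causes was tested. Depth fits within lncRNA classes called 0 of 85 genes in low cells, and 46 of 85 in low cells without other cell types' markers. In high cells 0 of 86 were called, but that fit held mKate2 AAV 1 and Yap5SA AAV 1 alone, too few libraries for a test. Leaving aside fits within lncRNA classes of MG and those scaled to ribosomal protein UMIs, of 770 values of named genes under alternatives, 742 kept direction and side of the threshold, 19 kept the direction but crossed the threshold, most of them in MG against microglia and macrophages with shallow or lncRNA-low cells, and 9 changed sign. Those with Yap5SA AAV, none of them called, came from leaving out mKate2 AAV 2 (Rps27rt, Rpl10-ps3 and Rpl23a), mKate2 AAV 1 (Rps28) or Yap5SA AAV 1 (Rpl10-ps3, Rps28 and Rps19bp1), and the log2 fold changes then ranged from -1.49 to 0.40 for Rps27rt, -1.41 to 1.12 for Rpl10-ps3, -1.02 to 0.29 for Rpl23a, -0.26 to 0.76 for Rps28 and -0.025 to 0.45 for Rps19bp1. Against microglia and macrophages Rpl7l1 changed to 0.41 in cells under 6000 UMIs and 0.27 in lncRNA-low cells. The comparison with rods had 2 libraries, so it and its alternatives were not fitted. No paired analysis was possible because the libraries compared share only replicate number 1 across conditions, so no block by replicate number could be fitted. The Cell Ranger version as a term, with 1 library per condition in each version, gave 0 of 86 calls and a median of -0.21, with 151 of all genes under an unadjusted p of 0.05 by edgeR. With 2 libraries per condition and standard errors of 0.289 to 0.888 for the named genes, effects of Yap5SA AAV larger than their standard error could be missed.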
